A study of Caenorhabditis elegans with 10 samples.

Results

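The genes described here are 10 Caenorhabditis elegans genes of the nlp (neuropeptide-like protein) family, grouped as epidermal antimicrobial peptide genes. They are nlp-24, nlp-25, nlp-27, nlp-28, nlp-29, nlp-30, nlp-31, nlp-32, nlp-33 and nlp-34. Neither the tissue of expression nor the activity of the peptides was measured here. The genes were taken by name from a table of 45461 genes, and all 10 were found. RNA was measured by sequencing of polyadenylated RNA in 10 libraries of embryos collected 3 hours after the egg preparation, in 5 groups of 2 libraries. In the preconditioned group, called N2 300-500 mM, embryos of wild-type N2 parents kept on 300 mM NaCl were moved to 500 mM. All other groups had parents on 50 mM NaCl: embryos of the RAF kinase mutant lin-45(n2018) on 500 mM (lin-45 500 mM), N2 embryos on 500 mM (N2 500 mM), lin-45(n2018) embryos on 50 mM (lin-45 50 mM) and N2 embryos on 50 mM (N2 50 mM). The mutant groups carry 1 allele, and every library is RNA of whole embryos, so that fewer cells of a type and less RNA per cell cannot be told apart.

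The peptides are made from short secreted precursors rich in glycine and aromatic residues. In adult worms, nlp-29 and its neighbours are expressed in the epidermis and are switched on by infection with the fungus Drechmeria coniospora, by wounding and by high salt. The response to fungus and wounds runs in the epidermis through the receptor DCAR-1, the G protein subunit GPA-12, the adaptor TIR-1 and the p38 kinase cascade of NSY-1, SEK-1 and PMK-1, and ends at the STAT-like factor STA-2 with its partner, the transporter-like protein SNF-12. Damage to the annular furrows of the adult cuticle, or loss of osm-7, osm-8 or osm-11, also turns on nlp-29 together with the glycerol gene gpdh-1.

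Of the 10 genes, 6 stand side by side on chromosome V in the nlp-29 cluster. On the ce10 build the cluster runs from 3978810 to 3989755, a span of 10946 bp, and holds no other gene model. In order along the chromosome the genes are nlp-34 (3978810 to 3979119), nlp-31 (3980039 to 3980614), nlp-30 (3981964 to 3982730), nlp-29 (3984397 to 3984834), nlp-28 (3987884 to 3988302) and nlp-27 (3989075 to 3989755). nlp-34 lies on the minus strand and the other 5 on the plus strand, and the gaps between neighbours run from 772 bp (nlp-28 to nlp-27) to 3049 bp (nlp-29 to nlp-28). Outside the cluster, nlp-33 (11147325 to 11147792), nlp-24 (11616264 to 11616869) and nlp-25 (19607480 to 19608380) lie on the plus strand of chromosome V, and nlp-32 (486120 to 486545) on the minus strand of chromosome III. In the WBcel235 annotation each gene has 1 transcript with 2 exons and a short precursor, the shortest in nlp-34 with 59 residues and the longest in nlp-32 with 105. The gene model of nlp-24 overlaps glb-15 on the opposite strand, whose count reached at most 219 in a library, against at least 4514 for nlp-24. The counts of nlp-29, nlp-30 and nlp-33 were not whole numbers (within 1e-06) in any of the 10 libraries, and those of nlp-24, nlp-27 and nlp-31 were not whole in 9, so that RSEM shared some reads out by estimate, and the similarity of these genes to each other was not analysed here.

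The libraries held 22138098 to 34585489 counts each, for 18871 to 19671 genes, and 14802 genes were tested. CPM stands for counts scaled to library size, here corrected by TMM, a trimmed mean of ratios, and a tested gene reached 1 CPM in 2 or more libraries. All 10 nlp genes passed this filter, nlp-25 through the 50 mM groups alone. Its falls on 500 mM are given and counted below, but the filter favoured them and they are no support. The labels do not say whether replicates came from separate cultures, so p-values measure only how far these libraries spread, and that spread may be technical. With 2 libraries a side the smallest p that an exact permutation test allows is 0.3333, and each call below is an adjusted p under 0.05 in edgeR's quasi-likelihood test with the spread shared over all groups and genes. Statements that groups did not overlap only describe these libraries, and the share of all tested genes without overlap was not counted. The median difference between replicates over the 10 nlp genes was 0.42 (log2) in N2 300-500 mM embryos, 0.21 in lin-45 500 mM embryos, 0.27 in N2 500 mM embryos, 0.03 in lin-45 50 mM embryos and 0.07 in N2 50 mM embryos. The salt marker gpdh-1 stood at 73.4 and 91.3 CPM in N2 300-500 mM, at 109 and 107 CPM in lin-45 500 mM, at 187 and 180.0 CPM in N2 500 mM, at 13.2 and 9.62 CPM in lin-45 50 mM and at 4.05 and 3.34 CPM in N2 50 mM. lin-45 RNA was present in the mutant, with a mean of 118 CPM in lin-45 50 mM against 94.0 CPM in N2 50 mM, and the level of an RNA does not check the allele.

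Per length, the authors' FPKM values (fragment counts scaled for gene length and depth) placed nlp-29, nlp-24 and nlp-33 on top in every group except lin-45 50 mM, where nlp-34 stood above nlp-33. By mean FPKM among all genes, nlp-29 took rank 151 in N2 300-500 mM, rank 97 in lin-45 500 mM, rank 100 in N2 500 mM, rank 166 in lin-45 50 mM and rank 313 in N2 50 mM. nlp-24, whose peptides act as opioid-like signals in starved worms, was the most abundant in N2 50 mM, with 1135 FPKM in both libraries and 40.9% and 40.5% of the summed FPKM of the 10 genes. On 500 mM nlp-29 took the first place in all 6 libraries, with 34.2% to 37.0% of the sum. In lin-45 50 mM nlp-29 and nlp-24 led 1 library each. nlp-25 was the rarest gene in every library, at 0.13 to 0.73 FPKM on 500 mM, 29.6 and 30.7 FPKM in lin-45 50 mM, and 6.32 and 7.67 FPKM in N2 50 mM.

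The summed FPKM of the 10 genes was 2129 and 2662 FPKM in N2 300-500 mM, 4633 and 4321 FPKM in lin-45 500 mM, 3690 and 4910 FPKM in N2 500 mM, 3837 and 4155 FPKM in lin-45 50 mM and 2773 and 2805 FPKM in N2 50 mM. The preconditioned embryos and the unstressed wild type thus had the lowest sums, and the other groups overlapped in part.

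**Figure D1:**
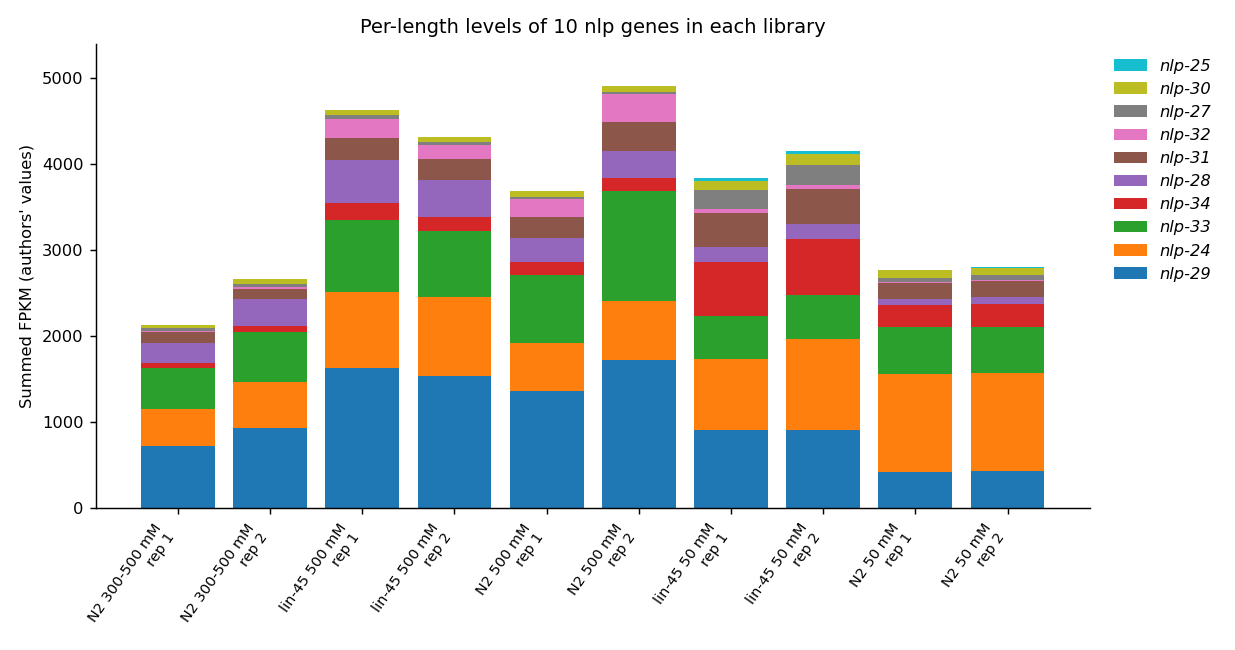
Summed FPKM of the 10 nlp genes in each of the 10 libraries, stacked by gene (authors' values, y axis in FPKM). nlp-24 (orange) is the thickest layer in N2 50 mM and nlp-29 (blue) in all 6 libraries on 500 mM.

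**Figure D2:**
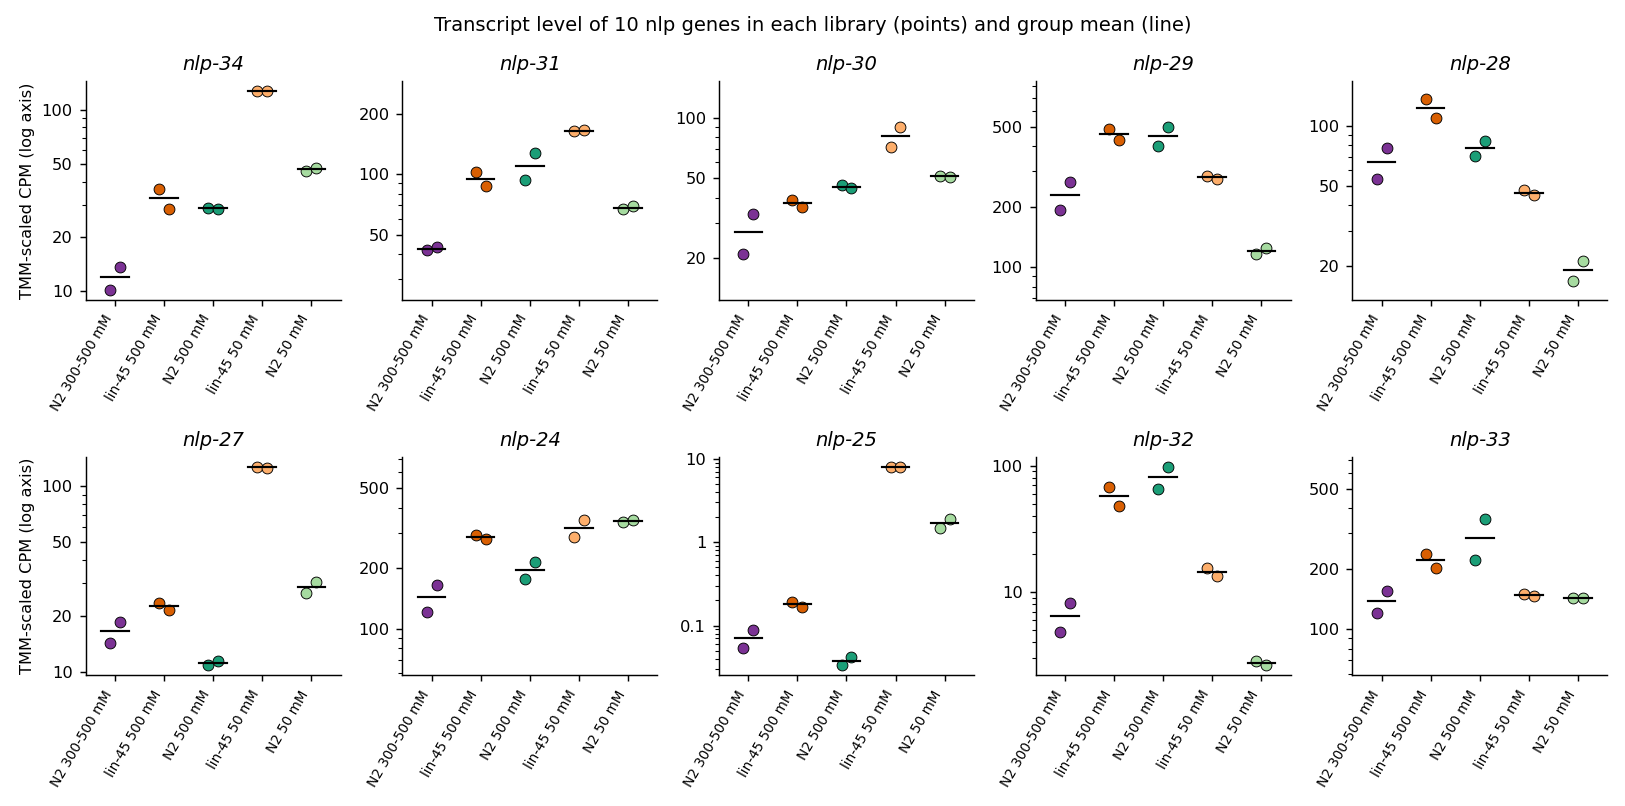
Level of each nlp gene in TMM-scaled CPM on a log axis, with points for the 2 libraries of a group and a line for their mean. The top row and nlp-27 are the cluster genes in chromosomal order, and each panel has its own range.

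N2 embryos on 500 mM against N2 embryos on 50 mM ask what the salt step alone does in the wild type. The nlp genes split: nlp-28, nlp-29, nlp-31, nlp-32 and nlp-33 rose, nlp-24, nlp-25, nlp-27 and nlp-34 fell, and nlp-30 did not pass. These 9 calls among 10 genes compare with 63.5% of all tested genes called in this comparison, 31.4% higher and 32.1% lower, and the members' median log2 fold change was 0.26 against -0.01 over all tested genes. The 9 include nlp-25, which passed the filter through the 50 mM groups alone.

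nlp-29, the best known salt- and infection-induced gene of the family, stood at 399.7 and 501 CPM in N2 500 mM and at 116.5 and 124 CPM in N2 50 mM. Both salt libraries lay above both unstressed ones, and the gene rose 3.74-fold (log2 1.90 ± 0.16 SE, adjusted p = 1.85e-05). nlp-28 stood at 70.6 and 83.5 CPM in N2 500 mM, against 16.8 and 21.2 CPM in N2 50 mM, and rose by log2 2.02 ± 0.20 (adjusted p = 3.83e-05). nlp-32 stood at 65.7 and 97.9 CPM in N2 500 mM, against 2.86 and 2.63 CPM in N2 50 mM. It rose 29.9-fold (log2 4.90 ± 0.33, adjusted p = 5.65e-06), the highest rise of the 10 genes here, and neither library came near those of the other group. nlp-33 stood at 220.3 and 352 CPM in N2 500 mM, against 142 and 144 CPM in N2 50 mM (log2 1.00 ± 0.20, adjusted p = 0.00257). nlp-31, whose peptide has antifungal activity in vitro, stood at 93.1 and 127 CPM in N2 500 mM, against 66.8 and 69.2 CPM in N2 50 mM (log2 0.69 ± 0.14, adjusted p = 0.00228). Without N2 500 mM replicate 2, the higher library for both genes, the changes were 0.63 for nlp-33 and 0.46 for nlp-31, both still called.

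Among the genes that fell, nlp-27 stood at 10.9 and 11.5 CPM in N2 500 mM, against 26.8 and 30.3 CPM in N2 50 mM (log2 -1.36 ± 0.13, adjusted p = 4.02e-05). nlp-34 stood at 28.8 and 28.4 CPM in N2 500 mM, against 46.2 and 48.1 CPM in N2 50 mM (log2 -0.72 ± 0.15, adjusted p = 0.00263). nlp-24 stood at 176 and 215 CPM in N2 500 mM, against 339.7 and 348 CPM in N2 50 mM (log2 -0.82 ± 0.16, adjusted p = 0.0022). The groups did not overlap for any of the 3 genes. nlp-25 was nearly absent on salt, with 2 counts in N2 500 mM against 94 in N2 50 mM, a depth-scaled count ratio of 0.0216 (exact 95% interval 0.00258 to 0.0803, counting error only; adjusted p = 8.67e-06). nlp-30 stood at 46.1 and 45.0 CPM in N2 500 mM, against 51.3 and 50.9 CPM in N2 50 mM (log2 -0.17 ± 0.19, adjusted p = 0.456). Its libraries did not overlap, but the difference was below what the model called. In the same comparison the epidermis markers gave 3 of 10 higher and 1 lower, with a summed level of 517 to 521 FPKM in N2 500 mM against 503 to 517 FPKM in N2 50 mM and none at 0. Without N2 50 mM replicate 1 or N2 500 mM replicate 2 the marker calls were 2 higher and 0 lower. Of 6 tested intestine markers 2 rose and 3 fell, among them act-5 (-1.28 ± 0.09, adjusted p = 7.31e-06), with sums over the 7 listed of 974 to 1070 FPKM in N2 500 mM against 1980 to 2190 FPKM in N2 50 mM. Neuron markers gave 1 of 8 higher and 6 lower (0 and 4 without N2 500 mM replicate 2), with sums of 1250 to 1270 FPKM in N2 500 mM against 1810 to 1870 FPKM in N2 50 mM. Early maternal markers gave 3 of 8 higher and 1 lower, counts that moved when 1 library was left out (0 and 1 without N2 50 mM replicate 1, N2 50 mM replicate 2 or N2 500 mM replicate 1, 6 and 1 without either N2 300-500 mM library). The part of these lists in the result was not tested.

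lin-45 500 mM against lin-45 50 mM asks how the RAF mutant responds to the same salt step. Here 4 genes rose (nlp-28, nlp-29, nlp-32 and nlp-33), 5 fell (nlp-25, nlp-27, nlp-30, nlp-31 and nlp-34) and nlp-24 did not pass, beside 68.3% of all tested genes called, 33.4% higher and 34.9% lower. The median over the 10 genes was -0.47, against -0.02 over all tested genes. Among the 5 that fell, nlp-25 had passed the filter through the 50 mM groups alone.

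nlp-29 stood at 489.7 and 431 CPM in lin-45 500 mM, against 285 and 276 CPM in lin-45 50 mM (log2 0.72 ± 0.16, adjusted p = 0.00336). nlp-28 stood at 135 and 109 CPM in lin-45 500 mM, against 47.5 and 45.1 CPM in lin-45 50 mM (log2 1.40 ± 0.19, adjusted p = 0.000203). nlp-32 stood at 68.2 and 47.6 CPM in lin-45 500 mM, against 15.4 and 13.4 CPM in lin-45 50 mM (log2 2.01 ± 0.28, adjusted p = 0.000255). For these 3 genes every library on 500 mM lay above every library on 50 mM. nlp-33 stood at 238 and 202 CPM in lin-45 500 mM, against 149.5 and 147 CPM in lin-45 50 mM (log2 0.57 ± 0.20, adjusted p = 0.0323). This call was lost without either N2 50 mM library (adjusted p = 0.0503 and 0.0509), without either lin-45 50 mM library (0.0922 and 0.102) and without lin-45 500 mM replicate 1 (0.161).

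Within the cluster both end genes and the neighbours nlp-31 and nlp-30 fell. nlp-27 stood at 23.6 and 21.6 CPM in lin-45 500 mM, against 127 and 126 CPM in lin-45 50 mM, and fell by 2.48 on the log2 scale (± 0.13, adjusted p = 1.22e-06). nlp-34 stood at 36.6 and 28.4 CPM in lin-45 500 mM, against 127 CPM in both lin-45 50 mM libraries (log2 -1.96 ± 0.15, adjusted p = 7.6e-06). These groups lay far apart relative to the gaps between replicates. nlp-31 stood at 103 and 87.5 CPM in lin-45 500 mM, against 164 and 166 CPM in lin-45 50 mM (log2 -0.79 ± 0.14, adjusted p = 0.000903). nlp-30 stood at 39.0 and 36.2 CPM in lin-45 500 mM, against 71.7 and 90.4 CPM in lin-45 50 mM (log2 -1.11 ± 0.19, adjusted p = 0.000832). Neither pair of groups overlapped. nlp-25 had 11 counts in lin-45 500 mM against 408 in lin-45 50 mM, a ratio of 0.0224 (exact 95% interval 0.0111 to 0.0405; adjusted p = 1.15e-06). nlp-24 stood at 291 and 279 CPM in lin-45 500 mM, against 284 and 347 CPM in lin-45 50 mM, and its groups overlapped (log2 -0.15 ± 0.16, adjusted p = 0.434). Of the epidermis markers 6 of 10 rose and 1 fell, with sums of 439 to 471 FPKM in lin-45 500 mM against 341 to 356 FPKM in lin-45 50 mM. Of 6 tested intestine markers 1 rose and 4 fell (0 and 3 without lin-45 500 mM replicate 2), with sums of 1250 to 1290 FPKM in lin-45 500 mM against 2830 to 2950 FPKM in lin-45 50 mM. Neuron markers gave 1 of 8 higher and 5 lower, with sums of 1420 to 1430 FPKM in lin-45 500 mM against 1960 to 1990 FPKM in lin-45 50 mM. Early maternal markers gave 6 of 8 higher and 1 lower (1 and 1 without lin-45 50 mM replicate 1, 3 and 1 without lin-45 50 mM replicate 2, 2 and 1 without lin-45 500 mM replicate 2). The part of these lists was not tested.

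**Figure D3:**
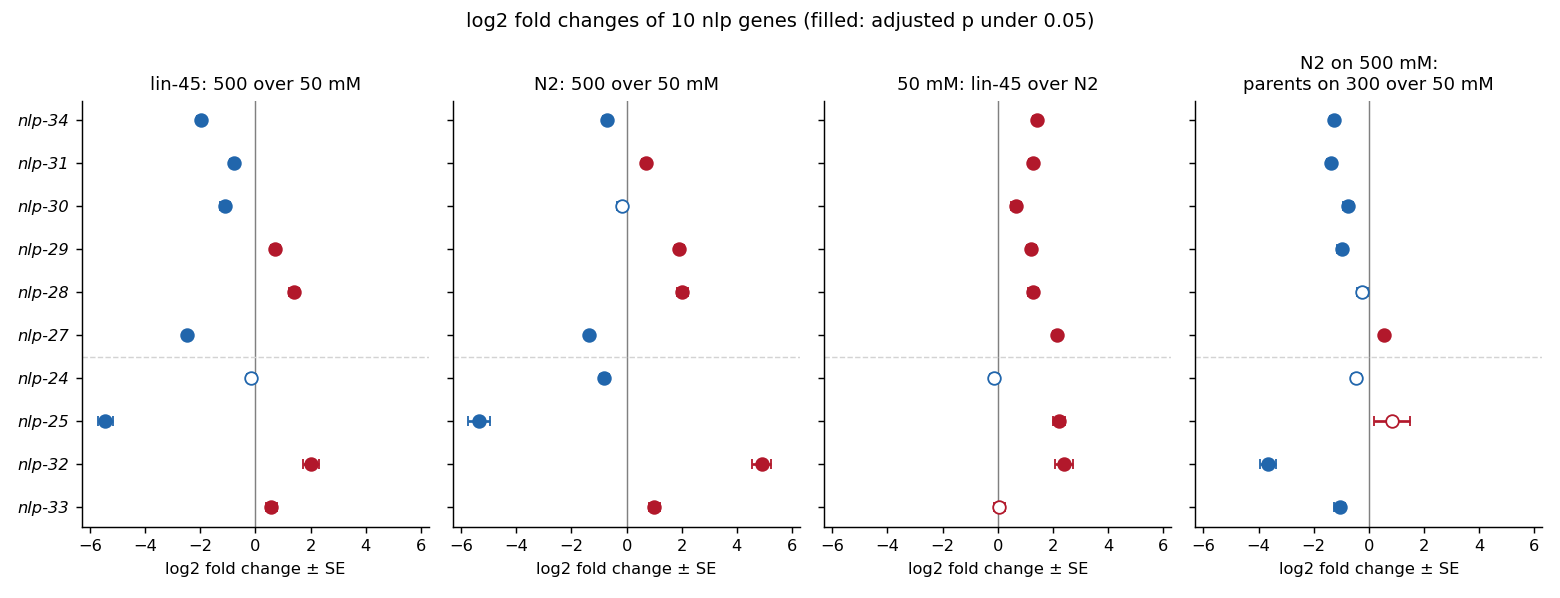
Fold changes of the 10 nlp genes in 4 comparisons, as log2 values with standard errors (x axis). Filled points passed an adjusted p of 0.05, red points lie above 0 and blue points below, and the dashed line separates the 6 cluster genes from the other 4; all 8 filled points of the third panel are red.

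The interaction tests the log2 change with salt in lin-45 less the log2 change with salt in N2. It passed for 6 genes, all with the more negative effect in lin-45, beside 26.4% of all tested genes, 12.2% more positive and 14.3% more negative, and the members' median was -1.03 against -0.06 over all tested genes. The share over all genes moved by over 1.5 times when any library of the 4 groups except lin-45 50 mM replicate 2 was left out, and was lowest, at 5.34%, without N2 50 mM replicate 1. Of all calls 46.0% were positive with TMM factors, 57.3% with RLE factors and 65.8% with upper-quartile factors, and the last moved the median of all genes by 0.10 on the log2 scale.

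The salt effect of nlp-31 had opposite signs in the strains, -0.79 in lin-45 and 0.69 in N2, a difference of -1.48 ± 0.19 (adjusted p = 0.00521). nlp-32 rose in both strains and less in lin-45, with 2.01 in lin-45 and 4.90 in N2 (difference -2.89 ± 0.42, adjusted p = 0.00623). nlp-29 also rose in both, by 0.72 in lin-45 and 1.90 in N2 (difference -1.19 ± 0.22, adjusted p = 0.0102), a call just lost without N2 50 mM replicate 1 (adjusted p = 0.0518). nlp-27 fell by 2.48 in lin-45 and by 1.36 in N2 on the log2 scale (difference -1.13 ± 0.18, adjusted p = 0.00772), and nlp-34 by 1.96 in lin-45 and by 0.72 in N2 (difference -1.24 ± 0.21, adjusted p = 0.00798). The call of nlp-30 (-0.94 ± 0.27, adjusted p = 0.0336) was the least steady: it was lost with each single library of the 4 groups left out except lin-45 50 mM replicate 1, with adjusted p of 0.0763 to 0.137, and with limma on log2(FPKM + 0.1) (0.0522). nlp-24 (0.67 ± 0.23, adjusted p = 0.0585), nlp-28 (-0.62 ± 0.27, adjusted p = 0.114) and nlp-33 (-0.43 ± 0.29, adjusted p = 0.287) did not pass. nlp-24 passed under 10 of 18 alternatives, among them RLE factors (adjusted p = 0.0458), DESeq2 (0.0116) and the replicate block (0.0367). nlp-33 passed without N2 500 mM replicate 1 (-0.73, adjusted p = 0.0479). nlp-25, with 1 to 6 counts a library on 500 mM in these groups, did not pass (adjusted p = 0.984), but passed with limma on log2(FPKM + 1) (-1.39, adjusted p = 0.00433).

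The strains were also compared directly on 50 mM, with the same libraries that serve as the low-salt side of the interaction. Without salt stress, 8 of the 10 genes were higher in lin-45 50 mM than in N2 50 mM and none was lower, beside 54.3% of all tested genes called, 33.2% higher and 21.1% lower (35.2% called without N2 50 mM replicate 1). The members' median was 1.28 (log2), against 0.16 over all tested genes. The share of higher calls over all genes was 61.2% here, 56.4% with RLE factors, 51.3% with upper-quartile factors, 46.2% without the filter and 47.1% with limma on log2(FPKM + 1), which changes both the values and the test. The members' count was 8 higher and 0 lower under each of these. nlp-32 was 5.24-fold higher (log2 2.39 ± 0.33, adjusted p = 0.000489) and nlp-27 was 4.42-fold higher (2.14 ± 0.13, adjusted p = 3.47e-05). nlp-25 gave a count ratio of 4.68 (exact 95% interval 3.73 to 5.92; adjusted p = 0.000145). nlp-34 was 2.69-fold, nlp-28 2.43-fold, nlp-31 2.42-fold and nlp-29 2.33-fold higher, with adjusted p from 0.000164 to 0.000785. For each of these 7 genes both lin-45 libraries lay above both N2 libraries.

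nlp-30 was 1.59-fold higher (log2 0.67 ± 0.19, adjusted p = 0.016), a call lost without either N2 50 mM library (adjusted p = 0.0768 and 0.0735) and without lin-45 50 mM replicate 2 (0.0906). nlp-33 (0.05 ± 0.20, adjusted p = 0.849) and nlp-24 (-0.12 ± 0.16, adjusted p = 0.544) did not pass. In this comparison the epidermis markers went the other way: 7 of 10 were lower in lin-45 50 mM and 1 was higher, with a summed level of 341 to 356 FPKM in lin-45 50 mM against 503 to 517 FPKM in N2 50 mM and none at 0. Of 6 tested intestine markers 4 were higher and 0 lower, with sums of 2830 to 2950 FPKM in lin-45 50 mM against 1980 to 2190 FPKM in N2 50 mM. The part of either list in the result was not tested.

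On 500 mM only nlp-27 was called between the strains, 2.03-fold higher in lin-45 500 mM (log2 1.02 ± 0.13, adjusted p = 0.0034), beside 6.49% of all tested genes, 4.84% higher and 1.65% lower. The number called over all genes was 961, 240 to 390 with 1 of the 4 compared libraries left out, and 2206 without either N2 300-500 mM library. The members' median was 0.11 against 0.00 over all tested genes. nlp-28 (0.66 ± 0.18, adjusted p = 0.0704) and nlp-24 (0.54 ± 0.16, adjusted p = 0.0828) missed the threshold, with lin-45 libraries above N2 libraries in both genes. Both passed with DESeq2 (0.00809 for nlp-28 and 0.0137 for nlp-24) and without either N2 300-500 mM library, and the count of members called was then 3. nlp-29 (0.03 ± 0.16, adjusted p = 0.93), nlp-31 (-0.21 ± 0.14, adjusted p = 0.394), nlp-32 (-0.50 ± 0.26, adjusted p = 0.297), nlp-33 (-0.38 ± 0.20, adjusted p = 0.299) and nlp-34 (0.19 ± 0.15, adjusted p = 0.488) had overlapping groups. nlp-30 gave -0.28 ± 0.19 (adjusted p = 0.417). nlp-25 had 11 counts in lin-45 500 mM against 2 counts in N2 500 mM, a ratio of 4.84 with an exact 95% interval of 1.06 to 44.9 that covers counting error only (adjusted p = 0.119). It passed with limma on log2(FPKM + 1) (0.0273) and on log2(FPKM + 0.1) (0.00363).

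N2 300-500 mM against N2 500 mM asks what the parents' growth on salt does to embryos on high salt. In preconditioned embryos nlp-29, nlp-30, nlp-31, nlp-32, nlp-33 and nlp-34 were lower, nlp-27 was higher and 3 genes did not pass. These 7 calls stand beside 22.2% of all tested genes, 10.2% higher and 12% lower (3292 genes, against 1540 without N2 500 mM replicate 1 and 1430 without replicate 2), and the members' median was -0.87 against 0.05 over all tested genes. The comparison shares the N2 500 mM libraries with the salt comparison in N2. nlp-32 stood at 4.78 and 8.23 CPM in N2 300-500 mM, against 65.7 and 97.9 CPM in N2 500 mM, 12.6-fold lower (log2 -3.66 ± 0.30, adjusted p = 0.000411). nlp-31 stood at 41.7 and 43.2 CPM in N2 300-500 mM, against 93.1 and 127 CPM in N2 500 mM (log2 -1.37 ± 0.14, adjusted p = 0.000699). nlp-34 stood at 10.2 and 13.7 CPM in N2 300-500 mM, against 28.8 and 28.4 CPM in N2 500 mM (log2 -1.26 ± 0.15, adjusted p = 0.00112). In all 3 genes both preconditioned libraries lay below both others.

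nlp-29 stood at 193 and 264 CPM in N2 300-500 mM, against 399.7 and 501 CPM in N2 500 mM (log2 -0.98 ± 0.16, adjusted p = 0.00377). nlp-33 stood at 121 and 155 CPM in N2 300-500 mM, against 220.3 and 352 CPM in N2 500 mM (log2 -1.05 ± 0.20, adjusted p = 0.00808), and gave -0.68 without N2 500 mM replicate 2 (adjusted p = 0.0366). Both genes again had separate groups. nlp-30 (-0.75 ± 0.19, adjusted p = 0.024) and nlp-27 (0.57 ± 0.13, adjusted p = 0.0178) lost their calls without either N2 500 mM library, with adjusted p of 0.0988 and 0.0935 for nlp-30 and 0.101 and 0.0745 for nlp-27. nlp-28 stood at 54.2 and 77.1 CPM in N2 300-500 mM, against 70.6 and 83.5 CPM in N2 500 mM, and its groups overlapped (-0.23 ± 0.18, adjusted p = 0.398). nlp-24 stood at 121 and 165 CPM in N2 300-500 mM, against 176 and 215 CPM in N2 500 mM (-0.45 ± 0.16, adjusted p = 0.0761). nlp-24 passed with DESeq2 (0.0357), with the replicate block (0.0461) and without N2 300-500 mM replicate 2 (0.0129). nlp-25 had 5 counts in N2 300-500 mM and 2 in N2 500 mM (ratio 1.88, exact 95% interval 0.308 to 19.7; adjusted p = 0.584). The epidermis markers gave 4 of 10 higher and 0 lower in preconditioned embryos, with sums of 639 to 652 FPKM in N2 300-500 mM against 517 to 521 FPKM in N2 500 mM. Only 2 were called without N2 500 mM replicate 1, N2 500 mM replicate 2 or N2 300-500 mM replicate 1. Of 6 germline markers 4 were higher (2 without either N2 500 mM library), with sums of 38.8 to 53.9 FPKM in N2 300-500 mM against at most 30.7 FPKM in N2 500 mM, and the part of these lists in the result was not tested.

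Set against unstressed N2 embryos, with which they share neither parental nor embryonic salt, preconditioned embryos had 3 genes higher and 6 lower. nlp-28 was 3.44-fold (log2 1.79 ± 0.19, adjusted p = 0.000115), nlp-29 1.90-fold (0.92 ± 0.16, adjusted p = 0.00133) and nlp-32 2.37-fold higher (1.25 ± 0.33, adjusted p = 0.0119). The call of nlp-32 was lost without N2 50 mM replicate 2 (1.18, adjusted p = 0.0768) or N2 300-500 mM replicate 2 (0.82, adjusted p = 0.0758). nlp-34 (-1.98 ± 0.15, adjusted p = 1.77e-05), nlp-24 (-1.27 ± 0.16, adjusted p = 0.000284), nlp-30 (-0.92 ± 0.19, adjusted p = 0.0035), nlp-27 (-0.79 ± 0.13, adjusted p = 0.000993) and nlp-31 (-0.68 ± 0.14, adjusted p = 0.00324) were lower. nlp-25 had 5 counts in N2 300-500 mM against 94 in N2 50 mM (ratio 0.0406, exact 95% interval 0.0129 to 0.0983; adjusted p = 1.43e-05). nlp-33 (-0.05 ± 0.20, adjusted p = 0.835) did not pass, and its groups overlapped. In all 9 genes were called, beside 58.3% of all tested genes, 30.4% higher and 27.9% lower, with a median of -0.74 against 0.04 over all tested genes. Here too the count includes nlp-25, which passed the filter through the 50 mM groups alone. The epidermis markers gave 6 of 10 higher and 0 lower, with sums of 639 to 652 FPKM in N2 300-500 mM against 503 to 517 FPKM in N2 50 mM, and all 6 germline markers were higher. Of 8 early maternal markers 7 were higher and 1 lower. These counts were 4 and 1 without N2 50 mM replicate 1, and 3 and 1 without N2 50 mM replicate 2 or N2 300-500 mM replicate 1. Neuron markers gave 1 of 8 higher and 6 lower (0 and 4 without N2 50 mM replicate 2), and tested intestine markers 2 of 6 higher and 3 lower (0 and 3 without N2 300-500 mM replicate 1). The part of these lists was not tested.

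Read by group, the order of levels differed from gene to gene. nlp-25, nlp-27, nlp-30, nlp-31 and nlp-34 were highest in lin-45 50 mM, nlp-28 and nlp-29 in lin-45 500 mM, nlp-32 and nlp-33 in N2 500 mM and nlp-24 in N2 50 mM. Preconditioned embryos were lowest for nlp-24, nlp-30, nlp-31, nlp-33 and nlp-34, N2 50 mM embryos for nlp-28, nlp-29 and nlp-32, and N2 500 mM embryos for nlp-25 and nlp-27. The mean of the highest group was 29.8 times that of the lowest for nlp-32, 11.3 times for nlp-27, 10.6 times for nlp-34 and 2.08 times for nlp-33. Of the 40 pairs of groups next to each other in these orders 9 overlapped, among them N2 50 mM and lin-45 50 mM for nlp-24, and N2 500 mM and lin-45 500 mM for nlp-29, nlp-31, nlp-32, nlp-33 and nlp-34. Groups were ordered by their own means, which favours separation. The share over all tested genes was not counted, so this number is no trait of the members.

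With salt, neighbours in the cluster did not move as 1 block. nlp-28 and nlp-27 lie 772 bp apart on the same strand, and nlp-28 rose with salt in both strains while nlp-27 fell in both. The FPKM ratio of nlp-28 to nlp-27 was 7.74 and 8.46 in N2 300-500 mM embryos, 11.5 and 10.5 in lin-45 500 mM embryos, 13.3 and 14.7 in N2 500 mM embryos, 0.761 and 0.730 in lin-45 50 mM embryos and 1.29 and 1.42 in N2 50 mM embryos. The ratio in each of the 6 libraries on 500 mM was thus above that in each of the 4 on 50 mM. At the other end, nlp-34, on the opposite strand 919 bp from nlp-31, fell in N2 on 500 mM while nlp-31 rose. Elsewhere this pair went the same way. Both fell with salt in lin-45 (log2 -1.96 for nlp-34 and -0.79 for nlp-31) and both were higher in lin-45 50 mM than in N2 50 mM (1.43 and 1.27). In preconditioned embryos both were lower than in N2 500 mM (-1.26 and -1.37) and than in N2 50 mM (-1.98 and -0.68). nlp-29 and nlp-34 are not adjacent, and the FPKM ratio of nlp-29 to nlp-34 was 8.81 and 11.3 in N2 500 mM, against 1.59 and 1.66 in N2 50 mM.

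Within 20000 bp of the cluster lie 13 other protein-coding genes, of which 5 passed the filter, all cytochrome P450 genes of the cyp-34A group on the left side. The tested genes went different ways with salt in N2: cyp-34A6 (log2 1.84 ± 0.32, adjusted p = 0.00117) and cyp-34A9 (0.76 ± 0.24, adjusted p = 0.0231) rose, and cyp-34A7 (-2.89 ± 0.23, adjusted p = 1.3e-05), cyp-34A8 (-0.83 ± 0.18, adjusted p = 0.00301) and cyp-34A10 (-0.94 ± 0.30, adjusted p = 0.0246) fell. The interaction passed for cyp-34A9 (-1.48 ± 0.34, adjusted p = 0.0178) and cyp-34A10 (-1.40 ± 0.42, adjusted p = 0.0398), both singled out after their values were seen.

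**Figure D4:**
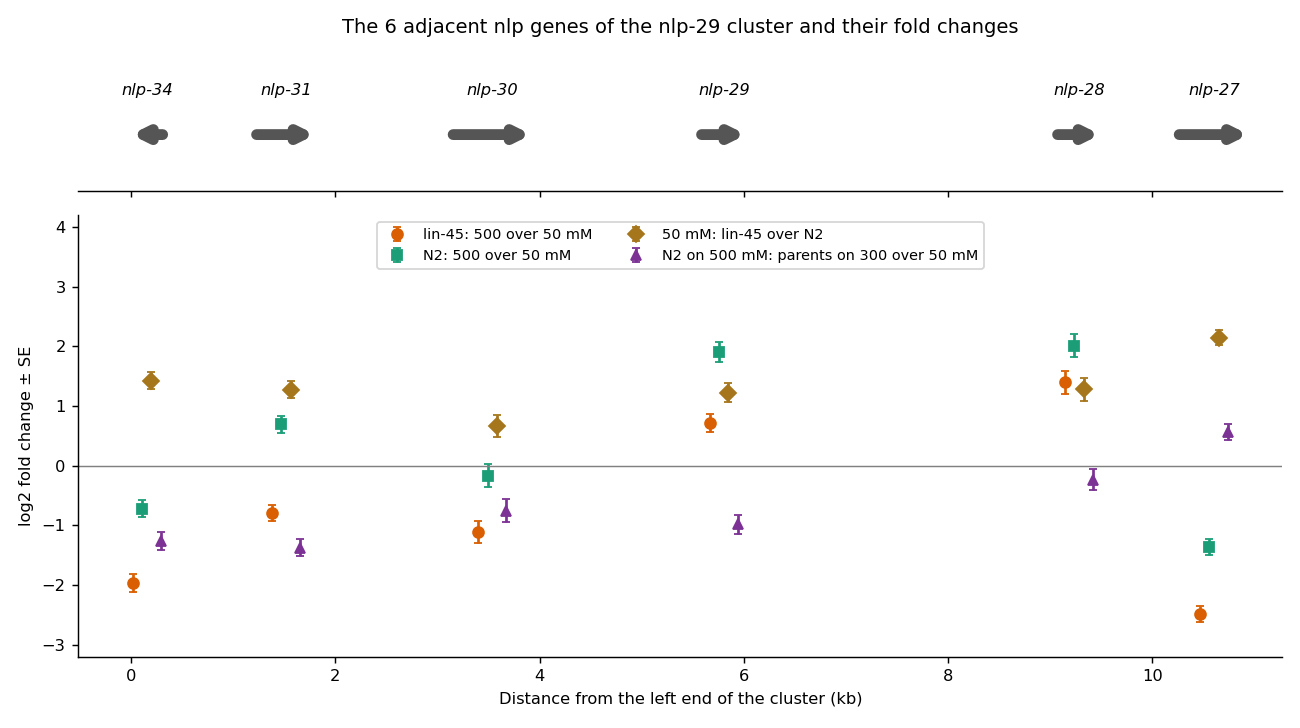
Map of the 6 cluster genes to scale (top, arrows point along transcription) and, under each gene, its log2 fold change with standard error in 4 comparisons, against the distance from the cluster's left end in kb. nlp-28 lies above 0 for salt in both strains and nlp-27 below 0, while the brown diamonds (lin-45 over N2 on 50 mM) lie above 0 for all 6 genes.

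Likeness between patterns was described by the root mean square (RMS) difference of log2(CPM + 1) profiles over the 10 libraries, each centred on its own mean. Among the members the closest pairs were nlp-25 and nlp-27 (0.32), nlp-28 and nlp-29 (0.36) and nlp-24 and nlp-30 (0.37), and the farthest were nlp-25 and nlp-32 (2.42). The added 1 flattens the profile of the rare nlp-25, so its distances depend on it. With salt in N2 nlp-25 changed by log2 -5.36 and nlp-27 by -1.36, so their fold changes were not alike. nlp-28 and nlp-27, the closest neighbours on the chromosome, differed by 1.67. Among 9284 genes with a mean of at least 10 CPM, nlp-29 was nearest to F52F12.7 (0.18), the dehydrogenase gene dhs-13 (0.20) and C53B7.3 (0.20). nlp-31 was nearest to the fatty acid desaturase genes fat-5 (0.19) and fat-3 (0.19) and to ttr-24 (0.22), of the transthyretin-related family. nlp-25 was nearest to W08E12.2 (0.14), F20A1.1 (0.20) and Y75B8A.4 (0.21), and its low level brings its values close to the pseudocount of 1. nlp-32 had no neighbour as close, with ttr-25 at 0.42, C06B3.6 at 0.45 and the galectin gene lec-4 at 0.55. The RMS difference is not scaled to a gene's own spread, and that of nlp-32 was the widest. The SD of its log2 values over the libraries was 1.81, against 1.27 for nlp-25, 0.76 for nlp-29 and 0.69 for nlp-31, so these distances do not rank the genes by likeness of shape.

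Genes that act upstream of nlp-29 in adult worms were looked up from a list of 17, all tested. With salt in N2, 6 rose and 6 fell, beside 31.4% of all tested genes higher and 32.1% lower. The p38 cascade genes nsy-1 (log2 0.92 ± 0.08, adjusted p = 1.8e-05) and pmk-1 (0.90 ± 0.09, adjusted p = 3.84e-05) rose, and so did hpd-1 (0.85 ± 0.09, adjusted p = 7.67e-05), whose enzyme acts in tyrosine breakdown, the source of DCAR-1's ligand. gpa-12 fell (-1.26 ± 0.12, adjusted p = 3.83e-05). In lin-45 500 mM against lin-45 50 mM 7 rose and 5 fell, with pmk-1 at 0.79 ± 0.09 (adjusted p = 6.39e-05) and cebp-1, the gene of a bZIP factor, at -1.35 ± 0.11 (adjusted p = 1.1e-05). Over the list the median log2 change was 0.00 in N2 and 0.05 in lin-45.

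Between the strains on 50 mM, 8 of the 17 were higher in lin-45 and 4 lower, beside 33.2% of all tested genes higher and 21.1% lower. The list counts were 7 and 0 without lin-45 50 mM replicate 1. nipi-3, a pseudokinase gene needed for nlp-29 induction by infection, stood at 376 and 356 CPM in lin-45 50 mM, against 179.9 and 179.6 CPM in N2 50 mM (log2 1.03 ± 0.07, adjusted p = 4.54e-05). cebp-1, which NIPI-3 holds down in larvae, stood at 334 and 279 CPM in lin-45 50 mM, against 118 and 116 CPM in N2 50 mM (1.38 ± 0.11, adjusted p = 8.55e-05). tir-1 stood at 490.4 and 481 CPM in lin-45 50 mM, against 291 and 288 CPM in N2 50 mM (0.75 ± 0.08, adjusted p = 0.000156). The groups were separate for all 3 genes. pmk-1 itself was not called (0.03, adjusted p = 0.818). vhp-1, a phosphatase gene that acts on the stress kinases, was also higher (0.66 ± 0.09, adjusted p = 0.000415). The 4 lower genes included C06H5.7, which codes for DCAR-1 (-0.44 ± 0.12, adjusted p = 0.016), and plc-3 (-0.33 ± 0.08, adjusted p = 0.00818). The others were sta-2 (-0.50 ± 0.15, adjusted p = 0.0204) and snf-12 (-0.40 ± 0.12, adjusted p = 0.0221). In preconditioned embryos against N2 500 mM, 1 of the 17 was higher and 6 were lower, beside 10.2% of all tested genes higher and 12% lower. The list counts were 0 and 2 without N2 500 mM replicate 1, and 1 and 2 without N2 500 mM replicate 2. hpd-1 was lower (-0.80 ± 0.09, adjusted p = 0.000949) and so was cebp-1 (-0.71 ± 0.11, adjusted p = 0.00323).

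Of 6 osmotic regulators, 3 were lower in lin-45 50 mM than in N2 50 mM and osm-11 was higher (0.57 ± 0.10, adjusted p = 0.00154). Over all tested genes 21.1% were lower and 33.2% higher. osm-7, which codes for a secreted protein, stood at 32.7 and 51.4 CPM in lin-45 50 mM, against 181 and 164 CPM in N2 50 mM (-2.03 ± 0.19, adjusted p = 0.00013). osm-8, which codes for a mucin-like protein, stood at 2.08 and 7.63 CPM in lin-45 50 mM, against 42.9 and 34.5 CPM in N2 50 mM (-2.95 ± 0.42, adjusted p = 0.000574). The replicates of osm-8 were uneven, and its change was -2.34 without lin-45 50 mM replicate 1 and -4.21 without replicate 2. ptr-23, of the patched-related family, was lower as well (-0.85 ± 0.14, adjusted p = 0.00104). With salt, 5 of the 6 rose and 1 fell in lin-45, and 2 rose and 3 fell in N2. Over all tested genes 33.4% rose and 34.9% fell in lin-45, and 31.4% and 32.1% in N2. osm-11 fell in both strains (-2.455 in lin-45, adjusted p = 4.86e-07, and -2.04 in N2, adjusted p = 1.39e-06), and wnk-1 rose in both (1.21 and 1.08). osm-8 rose in lin-45 (2.11, adjusted p = 0.00182) and was not called in N2 (-0.23). ptr-23 rose in lin-45 (0.47) and fell in N2 (-0.51). osm-7 also rose in lin-45 (0.67 ± 0.19, adjusted p = 0.0112) and fell in N2 (-1.49 ± 0.19, adjusted p = 0.000175), and its interaction of 2.16 ± 0.26 passed (adjusted p = 0.00436).

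The furrow collagen genes of the cuticle were looked up as well. Of 5 tested, dpy-2, dpy-3, dpy-7 and dpy-10 were lower in lin-45 50 mM and dpy-9, named after its values were seen, was higher (2.32 ± 0.33, adjusted p = 0.000615), with a list median of -2.35. Over all tested genes 21.1% were lower and 33.2% higher. dpy-7 stood at 25.4 and 39.5 CPM in lin-45 50 mM, against 169.5 and 141 CPM in N2 50 mM (-2.25 ± 0.19, adjusted p = 0.000102). The summed FPKM of the 6 listed genes was 80.0 to 147 in lin-45 50 mM against 526 to 643 in N2 50 mM, and 753 to 757 in lin-45 500 mM against 1120 to 1160 in N2 500 mM. With salt 4 rose and dpy-9 fell in lin-45 (-1.78 ± 0.32, adjusted p = 0.00107), and in N2 4 rose and dpy-9 did not pass (0.64 ± 0.34, adjusted p = 0.131). Over all tested genes 33.4% rose with salt in lin-45 and 31.4% in N2. In N2 only dpy-7 was called without N2 50 mM replicate 2. The part of the regulators and collagens in the nlp levels was not tested.

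The caenacins (cnc genes), a second family of small glycine-rich antimicrobial peptides, were counted in the same comparisons. Over all tested genes 31.4% rose and 32.1% fell with salt in N2, and 33.4% rose and 34.9% fell in lin-45. Between the strains on 50 mM 33.2% were higher in lin-45 and 21.1% lower. In preconditioned embryos against N2 500 mM 10.2% were higher and 12% lower. Of 8 caenacins tested, 6 were higher in lin-45 50 mM than in N2 50 mM and none was lower (3 higher without N2 50 mM replicate 1). With salt in N2 4 rose and 2 fell, and in lin-45 2 rose and 5 fell. The lin-45 count was 7 here and lower under every alternative, and moved most without lin-45 500 mM replicate 2. Its call closest to the threshold was cnc-10 (-0.335 ± 0.132, adjusted p = 0.0479). In preconditioned embryos against N2 500 mM 0 were higher and 4 lower. cnc-11 stood at 40.8 and 65.0 CPM in N2 300-500 mM, at 283 and 171 CPM in lin-45 500 mM, at 212.6 and 259 CPM in N2 500 mM, at 6.09 and 6.91 CPM in lin-45 50 mM and at 3.13 and 2.94 CPM in N2 50 mM. Its preconditioned libraries lay below the other 4 on 500 mM (log2 -2.16 ± 0.27 against N2 500 mM, adjusted p = 0.00123) and above all 4 on 50 mM. Of 36 fip and fipr genes, named for induction by fungus, 18 were tested: 5 rose and 12 fell with salt in N2, 5 rose and 11 fell in lin-45, and 7 were higher and 2 lower in lin-45 50 mM than in N2 50 mM. That last split was 4 and 0 without N2 50 mM replicate 2, and 4 and 1 without lin-45 50 mM replicate 1.

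**Figure D5:**
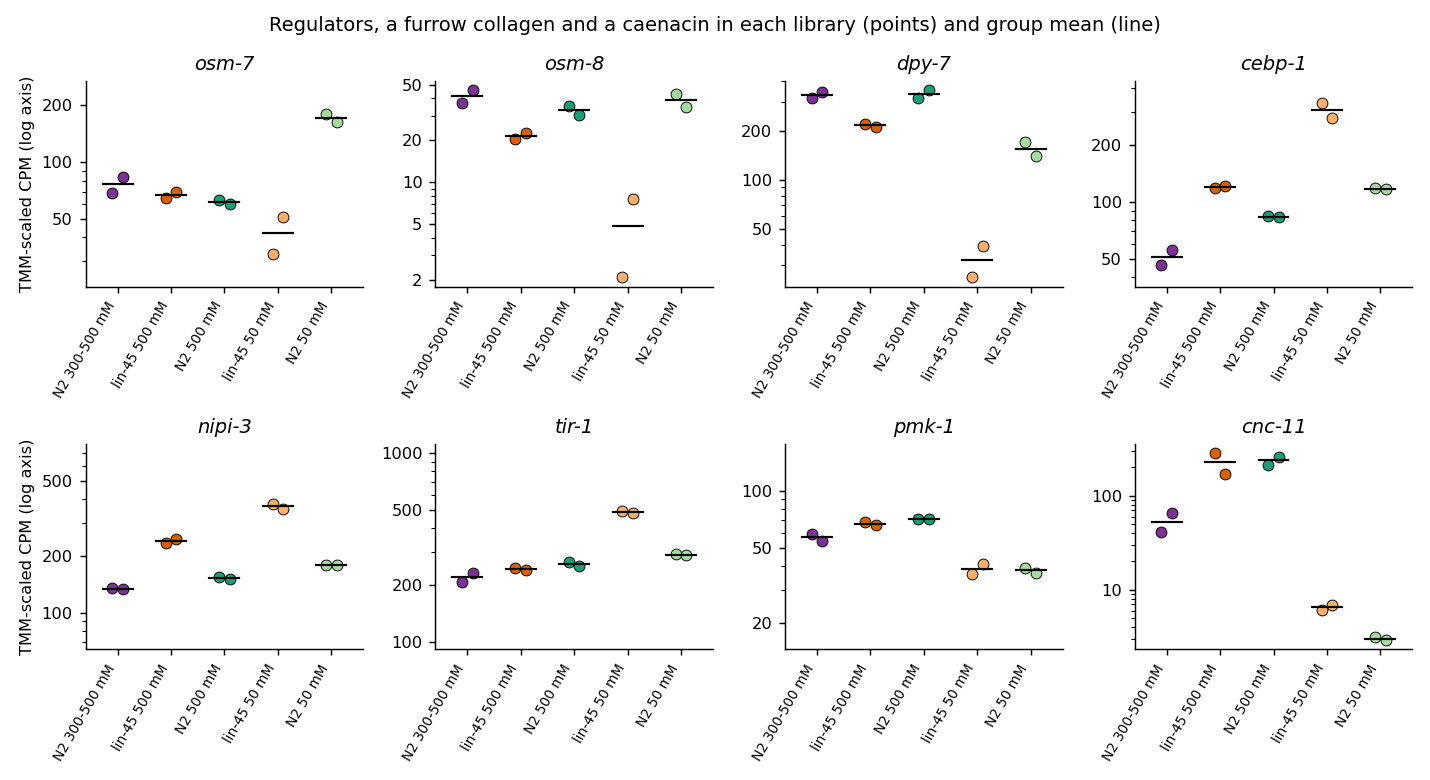
Levels of 8 related genes in TMM-scaled CPM on a log axis, with points for the 2 libraries of a group and a line for their mean. osm-7, osm-8 and dpy-7 are lowest in lin-45 50 mM, where cebp-1, nipi-3 and tir-1 are highest, and cnc-11 is high in all libraries on 500 mM.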

How the data were processed

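Per the file headers, the deposited table gives for each library an RSEM expected count, an FPKM value, a log2 value and, over libraries, the mean and the variance, a score not used here. The deposited log2 values equal log2(FPKM + 1). Per the labels' protocols, polyA-selected TruSeq libraries were sequenced in paired ends on a NextSeq. Per the submitters' processing notes, the build was ce10 and the tools included bedtools 2.25.0, RSEM 1.2.15, DESeq 1.10.1 and BWA 0.6.1. Tool settings and strandedness are stated in no source used here. Expected counts were rounded to whole numbers for edgeR 4.0.16 (R 4.3.3), with a filter of 1 CPM in 2 libraries, TMM factors of 0.923 to 1.083, and 1 mean per group over all 10 libraries. The quasi-likelihood test was two-sided and Benjamini-Hochberg adjusted over 14802 genes, with a threshold of 0.05. SE is the log2 change divided by the root of F. On data simulated for N2 500 mM against N2 50 mM (14334 genes tested), 88% of 2-fold and 98% of 4-fold changes were recovered. Another 10 calls were false. The simulation gave every gene the same dispersion (0.0173) and changed 100 genes at each fold, far fewer than were called in the data. It therefore does not measure recovery in these libraries. Alternatives were RLE and upper-quartile factors, DESeq2 1.42.0, other filters, limma 3.58.1 on log2 of deposited FPKM with a pseudocount of 1 or 0.1, a replicate block and each library left out. Members and lists were chosen with earlier results of these data known. All 10 members are named, with gpdh-1, lin-45 and the 3 nearest patterns of 4 members. The rule for the lists was the called genes with the smallest p in a comparison (at most 4) and genes that did not pass. Some called genes outside this rule are named too, among them osm-7 and cnc-10 for salt in lin-45, and not every gene within it is named. The cyp-34A genes were named for their position. Intervals cover counting error only.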

Additional observations from a re-analysis of the deposited data

Results flagged for a closer look

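For 6 genes the salt effect differed between the strains by the interaction test of edgeR, beside 26.4% of all tested genes called (5.34% without N2 50 mM replicate 1). The log2 change with salt in lin-45 less that in N2 was -2.89 for nlp-32, -1.48 for nlp-31, -1.24 for nlp-34, -1.19 for nlp-29, -1.13 for nlp-27 and -0.94 for nlp-30 (2 libraries in each of 4 groups). The call of nlp-30 was lost in 8 of 18 alternatives, and that of nlp-29 in 1. The 6 genes are those of the nlp-29 cluster other than nlp-28, together with nlp-32. All 6 were also called higher in lin-45 50 mM than in N2 50 mM, beside 33.2% of all tested genes. Of the 6 only nlp-27 was called between the strains on 500 mM, beside 6.49% of all tested genes. The interaction equals the strain difference on 500 mM less that on 50 mM, from the same libraries. Both counts thus follow in part from the interaction and add no support to it.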

How the results depend on the processing

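No member result reversed under any of 18 alternatives, 10 of which left out 1 library each: of 1260 results 1210 kept their side of the threshold and, except for 22 that neither fit called, their direction, while 23 lost a call and 27 gained one. The number of members called stayed at 9 for salt in N2 (9 to 9 with a library left out), was 8 to 9 for salt in lin-45, 4 to 7 for the interaction, 7 to 8 between the strains on 50 mM, 5 to 8 for N2 300-500 mM against N2 500 mM and 8 to 9 against N2 50 mM. Between the strains on 500 mM it was 1, and 1 to 3 with a library left out. It was 3 with DESeq2, with no filter on low counts, and with limma on FPKM at either pseudocount; the cause was not tested. With the replicate number as a block the counts were 9, 9, 7, 8, 1, 8 and 9, in the order salt in N2, salt in lin-45, interaction, strains on 50 mM, strains on 500 mM, and preconditioned against N2 500 mM and N2 50 mM. The labels do not say whether the numbers pair the libraries. Deviations of same-numbered libraries correlated at -0.297 to 0.124 across genes, which cannot decide it. Over all genes the block called 660 between the strains on 500 mM, against 961, and without N2 300-500 mM replicate 1 the number was 2206. In N2 300-500 mM against N2 500 mM, 46.0% of all calls were higher, set beside 59.9% with limma on log2(FPKM + 1). Depth limits nlp-25 on 500 mM, where its counts were 1 to 6 per library.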
